A study of Mus musculus with 24 samples.

Results

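Calb1, Kcnip1, Gap43, Rgs4, Gng13, Nmnat2, Ngfr, Chrm4, Nmur2 and Pld5 are best known from neurons, and all 10 were read in fetal mouse gonads, in the supporting cells that surround the germ cells. They are 10 of the 32040 genes in the deposited tables, and they were picked by name for high levels in XX against XY cells of this same series. The XX minus XY differences are therefore a description of what chose them, as are the XY levels, and no test is given for them. Nor is one given for an XX stage step that touches a stage for which that gene had been named earlier, so such steps carry a value and its standard error (SE) only. The study sorted pre-granulosa cells from XX gonads and Sertoli cells from XY gonads by fluorescence and sequenced their polyadenylated RNA at days E11.5, E12.5, E13.5 and lastly E15.5 of development, with 3 libraries in each of the 8 groups. XX cells came from a line carrying Tg(Enh8-mCherry), a red reporter, and XY cells from a SOX9-IRES-GFP line, a green reporter at the Sertoli factor gene Sox9. Sex, reporter line and sorting colour thus changed together and cannot be told apart. The sources used here do not say whether the replicates of a group were separate animals or pools, so p-values measure the spread between these libraries, which may be technical.

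In neurons these genes sit in a few connected processes. Receptors at the membrane (Ngfr, a neurotrophin receptor, Chrm4, a muscarinic acetylcholine receptor coupled to inhibitory G proteins, and Nmur2, a receptor for the peptides neuromedin U and neuromedin S) pass signals to G proteins, whose gamma subunits include Gng13 and whose alpha subunits are shut off by RGS proteins such as Rgs4. Calcium is buffered by calbindin, the product of Calb1, and sensed by KChIP proteins such as the product of Kcnip1, which bind Kv4 potassium channels. Gap43 encodes a membrane phosphoprotein of growing axon tips, Nmnat2 an enzyme of NAD synthesis that axons need to survive, and Pld5 a relative of the phospholipase D enzymes. Pre-granulosa cells are the somatic cells of the fetal ovary that later become the granulosa cells of follicles.

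Total counts ran from 11275251 to 37256881 per library. The sorted cells carried the markers of their labels: all 8 pre-granulosa markers (Foxl2 among them) were higher in XX and all 8 Sertoli markers (Sox9 among them) higher in XY at every stage by edgeR's quasi-likelihood test. Markers of other cells were also present. The summed level of 8 immune markers was 36.6 to 402 CPM (counts scaled to library size) in XX and at most 2.01 in XY, and that of 6 erythroid markers was 2280 to 22700 CPM in XX at E11.5 and 8.75 to 21.6 CPM in XY. At E13.5, 6 interstitial markers summed to 327 to 422 CPM in XX and 19.7 to 22.9 in XY. There, 8 surface epithelium and mesonephros markers summed to 414 to 430 CPM in XX and 32.4 to 34.6 in XY. The other way went 10 glia and neural crest markers, at 27.4 to 32.9 CPM in XX and 182 to 207 in XY. Sox10 is on that list and on the Sertoli list. The XX E11.5 libraries differed among themselves: replicate 2 held Foxl2 at 15.8 TPM (transcripts scaled to length and library size) against 1.35 and 2.32, and replicate 1 held Sox9 at 91.1 TPM against 27.7 and 28.6, where the XY mean was 684 TPM. One label field of XX E13.5 replicate 1 gives stage E12.5, while its title and description give E13.5, which was used.

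The members are spread over 6 chromosomes in the mouse GENCODE annotation (GRCm38, the build also called mm10). Nmnat2 (chr1:152954993-153119261, plus strand), Rgs4 (chr1:169741477-169747642, minus) and Pld5 (chr1:175962306-176275312, minus) share a chromosome, as do Kcnip1 (chr11:33629339-33993152, minus), Nmur2 (chr11:56024987-56041010, minus) and Ngfr (chr11:95568818-95587735, minus). Calb1 lies at chr4:15881264-15908064 on the plus strand, Gap43 at chr16:42248442-42340651 on the minus strand, Gng13 at chr17:25717171-25719406 on the plus strand and Chrm4 at chr2:91927249-91928688 on the plus strand. Gng13 overlaps Chtf18 on the opposite strand, Kcnip1 spans Kcnmb1 on the opposite strand, and Nmnat2 and Nmur2 each overlap an antisense gene. Whether the counting used strand is not given in the sources used here, so reads of such pairs cannot be told apart. The Gng13 estimate was not a whole number in 22 of 24 libraries, meaning that reads were shared out between features. Calb1 was not whole in 7 of 24, and the other 8 members were whole in all 24.

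RefSeq promoter windows (GRCm38.p6) were matched for 8 members, 11 windows in all, each covering the 250 bases before an annotated start. Printed here are the windows that held a forkhead core, the letters that FOXL2 and other forkhead factors bind (TAAACA, or TGTTTA when read on the other strand, in capitals), in Gng13 and Kcnip1, and those of Pld5 and Rgs4, which held none, for comparison. Of the Gng13 window, the last base, which lies in the first exon, is left out.
Gng13, chr17:25716922-25717170, plus strand: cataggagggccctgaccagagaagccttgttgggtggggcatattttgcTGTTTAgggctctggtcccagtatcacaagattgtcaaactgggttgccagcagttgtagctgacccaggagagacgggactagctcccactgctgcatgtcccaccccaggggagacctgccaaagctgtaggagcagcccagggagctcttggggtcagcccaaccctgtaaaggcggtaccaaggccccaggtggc
Kcnip1, chr11:33680683-33680932, minus strand: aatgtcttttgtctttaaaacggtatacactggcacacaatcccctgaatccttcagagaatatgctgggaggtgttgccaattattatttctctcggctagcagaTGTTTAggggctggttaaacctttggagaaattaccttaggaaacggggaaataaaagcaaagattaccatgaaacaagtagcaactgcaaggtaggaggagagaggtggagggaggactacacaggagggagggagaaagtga
Pld5, chr1:176213943-176214192, minus strand: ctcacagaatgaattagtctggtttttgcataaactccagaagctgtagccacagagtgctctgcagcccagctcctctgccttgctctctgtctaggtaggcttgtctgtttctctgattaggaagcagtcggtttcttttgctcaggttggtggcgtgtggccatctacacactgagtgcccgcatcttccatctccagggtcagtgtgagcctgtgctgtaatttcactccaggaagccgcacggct
Rgs4, chr1:169747643-169747892, minus strand: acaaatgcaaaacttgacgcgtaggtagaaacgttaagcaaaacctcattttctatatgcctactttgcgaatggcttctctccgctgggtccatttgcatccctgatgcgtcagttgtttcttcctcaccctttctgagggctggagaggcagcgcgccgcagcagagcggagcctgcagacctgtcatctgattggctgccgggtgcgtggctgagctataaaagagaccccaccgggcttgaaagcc
The forkhead core stood 200 to 195 bases before the start in Gng13 and 144 to 139 bases before it in Kcnip1, on the minus strand of the window both times. Those are 2 of 11 member windows, while 12% of all 32851 windows of this length held it. Kcnip1 has 3 annotated starts, and the other 2 windows held none. The bases just after each of these 3 RefSeq starts were not found in a GENCODE transcript of Kcnip1. The same was so for the Chrm4 start. The Kcnip1 and Pld5 windows printed here lie inside the spans of their genes.

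The other 10 motifs searched on both strands gave few matches. An E box (CAGCTG, the same on both strands) was in 1 window each of Kcnip1 and Ngfr, against 13.0% of all windows, and the right part of the RE1 element of the neuronal repressor REST (GGACAG) was in the second Gng13 window, against 18.7%. No member window held the left part of RE1 (TCAGCAC, 4.23% of all windows), a GATA core (AGATAA, 9.99%), an NR5A1 site (AAGGTCA, 4.08%), a TCF/LEF core (CTTTGA, 13.8%), a RUNX core (TGTGGT, 14.0%), a SOX core (ACAATG, 10.7%), a homeobox core (TAATTA, 4.84%) or a DMRT core (ACATTGT, 2.56%). No motif was shared by more than 2 members. Base composition varied too, from 44.0% G and C in that Kcnip1 window to 70.4% in Ngfr, around a median of 52.4% over all windows, and from 2 CpG sites in the first Gng13 window to 26 in Chrm4, where the median was 6. These are letter matches, and they say nothing of binding.

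Across stages, the members did not share one course in XX cells, and "switched on" describes only some of them. Gng13, Pld5, Nmnat2 and Kcnip1 were lowest at E11.5 and higher in the following stages. Calb1 was present from the start and was highest at E15.5. Gap43 and Rgs4 started high, were low by E12.5, partly back a day later and low again by E15.5. Chrm4, Nmur2 and Ngfr were highest at E12.5 and lowest at E15.5. The highest group was the same by TPM and by scaled CPM for all 10. In bulk RNA, fewer cells of a type and less RNA per cell cannot be told apart, which touches every level given here.

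**Figure D1:**
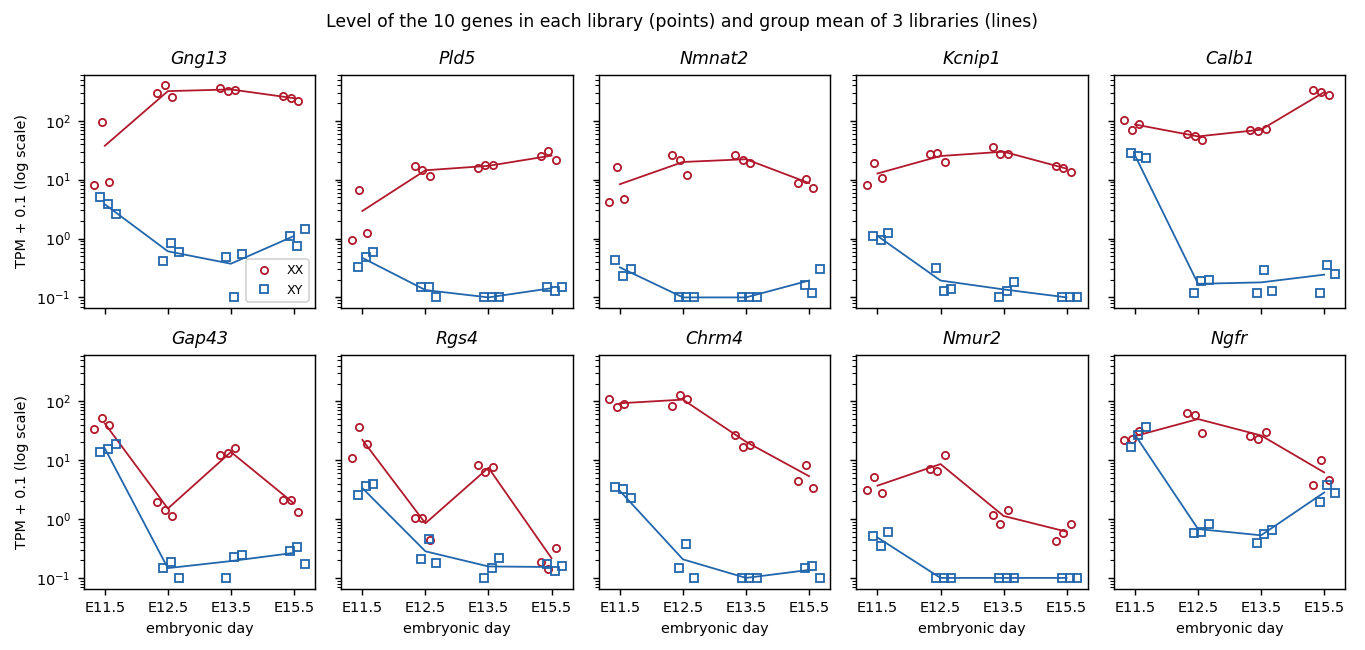
TPM plus 0.1 on a log axis against embryonic day for each of the 10 genes, with 1 point per library (red circles XX, blue squares XY) and lines through the means of 3 libraries. XX points lie above XY points in most panels, the Ngfr points of both sexes overlap at E11.5, and XX E11.5 replicate 2 (the middle circle) stands above its fellows for Gng13 and Pld5.

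Before the stage comparisons, XX E11.5 replicate 2 is described, since it differed from the other libraries of its group. Relative to the mean of the other 2 libraries of its group, it was 11.2 times as high for Gng13, 6.64 times for Pld5, 3.77 times for Nmnat2, 2.53 times for Rgs4, 2.08 times for Kcnip1, 1.74 times for Nmur2 and 1.38 times for Gap43. It was lower for Calb1 (0.75 times), Chrm4 (0.821 times) and Ngfr (0.87 times). Of the 8 pre-granulosa markers, the same library was 12.6 times as high for Irx3, 8.63 times for Foxl2, 3.5 times for Fst, 1.77 times for Rspo1, 1.28 times for Wnt4, 1.14 times for Bmp2, 0.814 times for Lhx9 and 0.76 times for Runx1. For the Sertoli gene Sox9 it was 0.463 times as high. Its erythroid markers summed to 2280 CPM against 9310 and 22700 in replicates 1 and 3. Immune markers summed to 149 CPM against 247 and 402, and interstitial markers to 456 against 906 and 2880. Pre-granulosa markers summed to 1140 CPM against 622 and 511. Surface epithelium and mesonephros markers, at 200 CPM against 135 and 177, and germ cell markers, at 6.19 against 3.1 and 6.03, were also highest in it. Results on the first step are given with and without replicate 2. Values without it rest on the 2 libraries with more erythroid, immune and interstitial signal. Leaving out a library in which a member is high lowers that member's E11.5 level by construction, so adjusted p-values without it are no independent test.

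Among the receptors, Chrm4 was abundant first and low at the end. Its XX libraries 1, 2 and 3 held 108, 80.8 and 88.9 TPM at E11.5, then 82.2, 130 and 108 TPM at E12.5, and these groups overlapped. They then held 26.4, 16.6 and 18.4 TPM at E13.5 and 4.4, 8.09 and 3.27 TPM at E15.5, with no overlap between either stage and the one before. At E11.5 Chrm4 had the highest mean of the 10 members in XX (92.6 TPM), and at E15.5 it ranked 7 of 10. The log2 change from E11.5 to E12.5 was 0.13 ± 0.26 (SE, edgeR adjusted p = 0.732), or 0.09 without XX E11.5 replicate 2. Chrm4 had been named for its E13.5 level, so the next steps, -2.16 ± 0.27 to E13.5 and -2 ± 0.30 to E15.5, are described only.

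Nmur2 followed a like course at a lower level. Its XX libraries held 3.07, 5.02 and 2.69 TPM at E11.5, 6.94, 6.45 and 12.1 TPM at E12.5, 1.07, 0.72 and 1.3 TPM at E13.5, and 0.33, 0.49 and 0.71 TPM at E15.5. No stages overlapped, but the lowest E13.5 library (0.72 TPM) and the highest E15.5 library (0.71 TPM) nearly met. Nmur2 had been named for its E12.5 level, so both steps that touch it are described only: 1.13 ± 0.35 on the log2 scale from E11.5 to E12.5, or 1.54 without XX E11.5 replicate 2, and -2.84 ± 0.39 from E12.5 to E13.5. The change from E13.5 to E15.5 was -0.94 ± 0.42 (edgeR adjusted p = 0.114).

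Ngfr was the member that the sexes shared at the start. XX libraries held 22.2, 23.3 and 31.3 TPM at E11.5 and XY libraries 16.7, 27.0 and 36.8 TPM, so the sexes overlapped and differed by 0.02 ± 0.31 on the log2 scale. In XX it stood at 63.5, 57.7 and 28.6 TPM at E12.5, 25.9, 22.9 and 29.8 TPM at E13.5 and 3.74, 10.1 and 4.48 TPM at E15.5. In XY it stood at 0.48, 0.51 and 0.74 TPM at E12.5 and 0.29, 0.46 and 0.54 TPM at E13.5, then at 1.88, 3.68 and 2.62 TPM at E15.5. Between the first 2 stages the XY mean thus went from 26.9 to 0.577 TPM and the XX mean from 25.6 to 49.9 TPM.

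The early rise of Ngfr in XX was 0.88 ± 0.32 on the log2 scale (edgeR adjusted p = 0.0371), with overlapping groups. Without XX E11.5 replicate 2 it was 0.86 (adjusted p = 0.0703). The call was kept in 7 of 15 alternatives, a fold threshold aside, over which the adjusted p ran from 0.0122 to 0.154. It was lost without XX E11.5 replicate 1 or 2 and without XX E12.5 replicate 1 or 2. Other losses came without the filter, when only those groups were fitted, and with limma on log2(TPM + 0.1) or on all genes with TPM above 0. The fall from E13.5 to E15.5 was -2.14 ± 0.34 (adjusted p = 0.000143) and held in all 15. Between these stages, at -0.70 ± 0.32 from E12.5 to E13.5, it did not pass the test (adjusted p = 0.0987). In XY, Ngfr was higher by 2.60 ± 0.44 at E15.5 than at E13.5, with no overlap, which is described only. The 10 glia and neural crest markers (Ngfr not among them) summed to 47.1 to 64.8 CPM in XX at E15.5 against 27.4 to 32.9 at E13.5. In XY they summed to 108 to 123 CPM at E15.5 against 182 to 207 at E13.5. Sox10 is on this list and on the Sertoli list, so the XY sums are not of glia or crest cells alone. Interstitial markers (6 genes) summed to 123 to 159 CPM in XY at E15.5 against 19.7 to 22.9 at E13.5. In XX they summed to 399 to 563 CPM against 327 to 422. The part of either list in the Ngfr levels was not tested.

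Of the G protein genes, Gng13 had the highest XX level of any member in the middle stages. Its XX libraries held 8.05, 95.5 and 9.0 TPM at E11.5, 301, 403 and 253 TPM at E12.5, 363, 326 and 335 TPM at E13.5 and 266, 247 and 214 TPM at E15.5. The first step was named earlier for its size and is described only: a log2 change of 2.76 ± 0.53, or 4.82 without XX E11.5 replicate 2. The second step, 0.36 ± 0.49, shares E12.5 with it and is also described only. The last, -0.55 ± 0.49, did not pass the test (edgeR adjusted p = 0.444), although the E13.5 and E15.5 libraries did not overlap. It did pass when only those groups were fitted (adjusted p = 0.000457). XY libraries held 4.92, 3.7 and 2.53 TPM at E11.5 and at most 1.37 TPM later.

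Rgs4 and Gap43 moved back and forth together, although one acts on G protein alpha subunits and the other in axon growth. Rgs4 stood at 10.8, 36.9 and 18.5 TPM in XX at E11.5, 0.95, 0.95 and 0.34 TPM at E12.5, 8.28, 6.11 and 7.64 TPM at E13.5 and 0.09, 0.04 and 0.22 TPM at E15.5. Gap43 stood at 34.4, 51.3 and 40.1 TPM at E11.5, 1.86, 1.33 and 1.04 TPM at E12.5, 12, 13.0 and 16.1 TPM at E13.5 and 2.02, 2.0 and 1.21 TPM at E15.5. All 3 libraries of each stage took part, and for neither gene did neighbouring stages overlap.

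The change from E11.5 to E12.5 was -5.18 ± 0.52 on the log2 scale for Rgs4 and -5.09 ± 0.31 for Gap43, or -4.51 and -4.85 without XX E11.5 replicate 2. The return at E13.5 was 3.68 ± 0.50 for Rgs4 and 3.61 ± 0.30 for Gap43. It left them at 33.3% and 32.7% of their E11.5 means. The change to E15.5 was -5.91 ± 0.64 for Rgs4 and -3.03 ± 0.29 for Gap43. Both genes had been named earlier for the return, and the other steps share a stage with it, so all 3 are described only.

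Markers of neurons were mostly lower at E12.5 too, and 7 of 24 passed as higher again at E13.5. Over the list of 24 pan-neuronal markers other than Gap43, 16 fell and 1 rose over the first XX step (edgeR adjusted p under 0.05), with a median log2 change of -2.73 against 0.007 over all genes. Of all genes, 17.3% fell and 16.7% rose in that step. The second step had 7 rises and 3 falls, with a median log2 change of 0.41, where 14.2% of all genes rose and 17.4% fell. The last had 3 rises and 4 falls, where 12.8% of all genes went each way. The list's summed level over the stages was 402 to 913, 205 to 222, 189 to 227 and 166 to 247 CPM, so its sum did not return at E13.5. At E11.5 the sum was 552, 402 and 913 CPM in XX libraries 1, 2 and 3. It was thus lowest in replicate 2, where Rgs4 and Gap43 were highest. The markers named next were chosen after their values were seen. Snap25, a synaptic fusion protein, had means of 3.76, 0.06, 1.33 and 0.02 TPM over the 4 stages, the course of Gap43 and Rgs4. Isl1 had 9.8, 0.173, 1.2 and 0.95 TPM and Nefl 15.9, 0.25, 0.683 and 0.287 TPM, both a little higher at E13.5 than at E12.5. Tubb3, a neuronal tubulin, had 7.47, 1.10, 1.19 and 0.557 TPM, with no return. Stmn2, a stathmin, had 1.76, 0.143, 0.787 and 0.67 TPM, a return with no second low. Among the XX E11.5 libraries, replicate 2 was lowest for Isl1 and Nefl, highest for Snap25, and between the others for Tubb3 and Stmn2.

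At the floor of 3 counts were 2 of the 24 markers at E12.5 and 2 at E15.5. Steroidogenic markers (6 genes) did dip and return, with 255 to 283 CPM at E11.5, 75.5 to 95.0 at E12.5 and 200 to 219 at E13.5, but stood at 293 to 322 at E15.5. The part of other cells in the Rgs4 and Gap43 levels was not tested.

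The genes nearest to these members by correlation over 24 libraries were Rgs5, an RGS gene of pericytes, and Acat2, a lipid enzyme gene, for Gap43, and Ndufa4l2 and Th, the first enzyme of catecholamine synthesis, for Rgs4. In XX over the 4 stages Rgs5 averaged 74.6, 4.53, 8.55 and 1.73 TPM, Ndufa4l2 38.3, 3.18, 12.1 and 1.25 TPM, Th 45.2, 1.03, 7.48 and 0.19 TPM, and Acat2 222, 150, 192 and 140 TPM. The order of the stages was thus the same for all 4 as for Gap43 or Rgs4 in that E11.5 was highest and E13.5 second, with a much smaller range for Acat2.

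**Figure D2:**
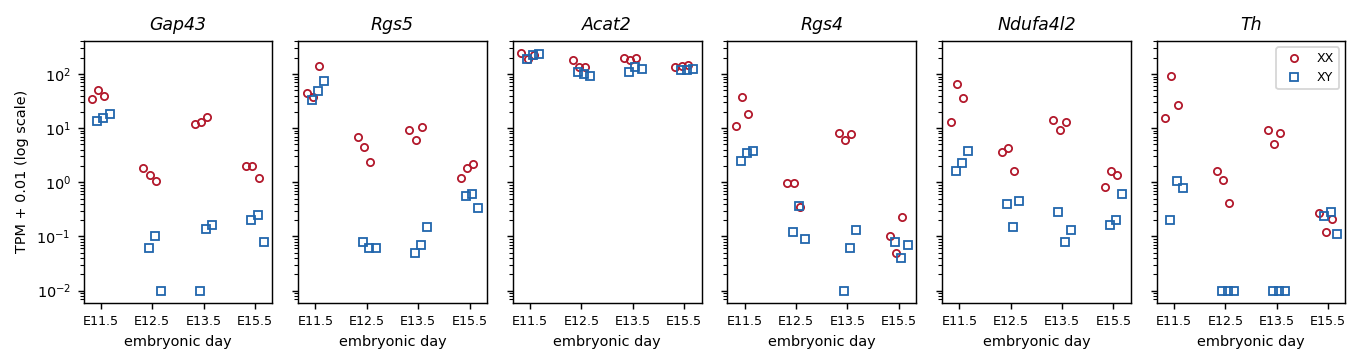
TPM plus 0.01 on a log axis against embryonic day for Gap43 and Rgs4, each followed by its 2 nearest genes by correlation, with 1 point per library (red circles XX, blue squares XY). In XX the E13.5 means of the 6 genes lie above those of E12.5 and E15.5, and the Acat2 means stay between 101 and 222 TPM in both sexes.

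Of the calcium genes, Calb1 had the latest peak. XX libraries held 102, 70.8 and 86.8 TPM at E11.5, 60.5, 55.1 and 47.2 TPM at E12.5, 70.2, 68.0 and 73.6 TPM at E13.5, and 334, 309 and 279 TPM at E15.5. XY libraries held 28.5, 24.9 and 23.7 TPM at E11.5, below every XX library, and at most 0.26 TPM afterwards. The E11.5 and E13.5 XX groups overlapped, while E15.5 stood above all others.

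In XX, the Calb1 change was -0.81 ± 0.12 on the log2 scale to E12.5, or -0.89 without XX E11.5 replicate 2, then 0.64 ± 0.12 to E13.5 and 2.06 ± 0.12 to E15.5. Calb1 had been named for its level at E15.5 and for how its sex difference moved over all stages, so these steps are described only. Beside the last step, 8 germ cell markers summed to 106 to 172 CPM at E15.5 against 9.18 to 22.7 at E13.5, and 8 surface epithelium and mesonephros markers to 570 to 602 CPM against 414 to 430. Their part in the Calb1 levels was not tested.

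Kcnip1 rose 1.84-fold early and was 1.95-fold lower at the end than at E13.5. XX libraries held 8.15, 19.3 and 10.4 TPM at E11.5, 27.3, 27.9 and 20.2 TPM at E12.5, 35.8, 26.8 and 26.7 TPM at E13.5 and 16.7, 15.6 and 13.7 TPM at E15.5. E12.5 and E13.5 overlapped and the other neighbouring stages did not. The early rise was 0.87 ± 0.27 on the log2 scale (edgeR adjusted p = 0.0176), or 1.41 without XX E11.5 replicate 2 (adjusted p = 2.71e-05). It lost its call without XX E11.5 replicate 1 or 3, without XX E12.5 replicate 1 or 2, and when only those groups were fitted. XX E11.5 replicate 2 held the most Kcnip1 of its group, so the larger rise without it follows from leaving it out. The second step, 0.47 ± 0.26, did not pass the test (adjusted p = 0.195), although it did when only those groups were fitted (0.0163). Kcnip1 had been named for its E15.5 level, so the last step, -0.96 ± 0.27, is described only.

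Nmnat2 and Pld5 parted at E15.5. Nmnat2 held 4.07, 16.2 and 4.54 TPM in XX at E11.5, 26.1, 21.7 and 11.9 TPM at E12.5, 26.0, 21.3 and 19.2 TPM at E13.5 and 8.64, 10.3 and 6.99 TPM at E15.5. Pld5 held 0.83, 6.54 and 1.14 TPM, then 16.9, 14.6 and 11.6, then 15.8, 17.5 and 18, then 25.5, 30.1 and 21.2. At E15.5 Nmnat2 was below all of its E13.5 libraries and Pld5 above all of its own.

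Pld5 rose by 2.26 ± 0.49 on the log2 scale from E11.5 to E12.5 (edgeR adjusted p = 0.00182), or by 3.89 without XX E11.5 replicate 2 (adjusted p = 5.89e-09). It lost this call, at an adjusted p of 0.1, only when those 2 groups were fitted alone. Nmnat2 rose by 1.17 ± 0.44 in the first step (adjusted p = 0.0483), with overlapping groups, or by 2.27 without XX E11.5 replicate 2 (adjusted p = 2.26e-05). That call was lost in 9 of 15 alternatives, among them leaving out XX E11.5 replicate 1 or 3 or XX E12.5 replicate 1 or 2. XX E11.5 replicate 2 held the most Pld5 and Nmnat2 of its group, so the larger rises without it follow from leaving it out. Both genes had been named for their E13.5 level, so the later steps are described only: 0.50 ± 0.45 and 0.52 ± 0.45 for Pld5, and 0.37 ± 0.42 and -1.33 ± 0.44 for Nmnat2.

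**Figure D3:**
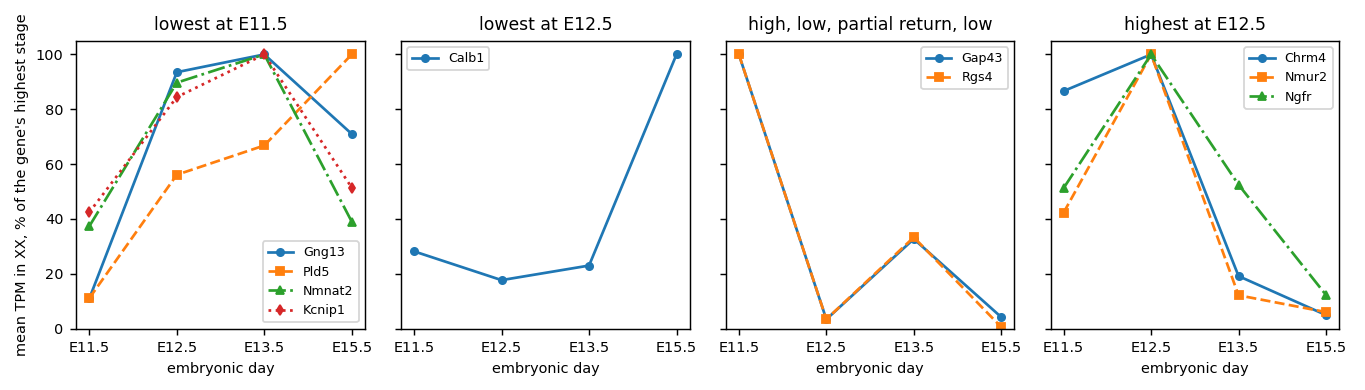
Mean TPM of 3 XX libraries at each embryonic day as a percentage of the gene's highest XX stage, in 4 panels by course. Gng13 and Pld5 start at 11% and 11.1% of their highest stage, Gap43 and Rgs4 are at 3.36% and 3.39% at E12.5, and Chrm4 is at 4.91% at E15.5.

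Of the first XX step 5 members could be tested, and 4 rose and none fell, where 16.7% of the 16190 genes tested rose and 17.3% fell. Calb1 (-0.81), Gap43 (-5.09) and Rgs4 (-5.18 on the log2 scale) were lower in that step but are described only. That none fell follows from this split, so nothing is read from the count. None of these 4 calls held in every alternative, and that of Pld5 was lost in only 1. From E12.5 to E13.5 neither Kcnip1 nor Ngfr passed edgeR's test, against 14.2% of all genes that rose and 17.4% that fell. Of these 2, Ngfr had an unadjusted p under 0.05, and limma on log2(TPM + 1) called it, as did edgeR without XX E12.5 replicate 3. From E13.5 to E15.5, 1 of 3 tested fell, against 12.8% of all genes in each direction, and that call, of Ngfr, held throughout. The median log2 change of the 10 members, described steps included, was 0.88, 0.42 and -1.15 in turn, where all genes had 0.007, -0.003 and 0. These steps use the XX libraries that also chose the members, and consecutive steps share a group.

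**Figure D4:**
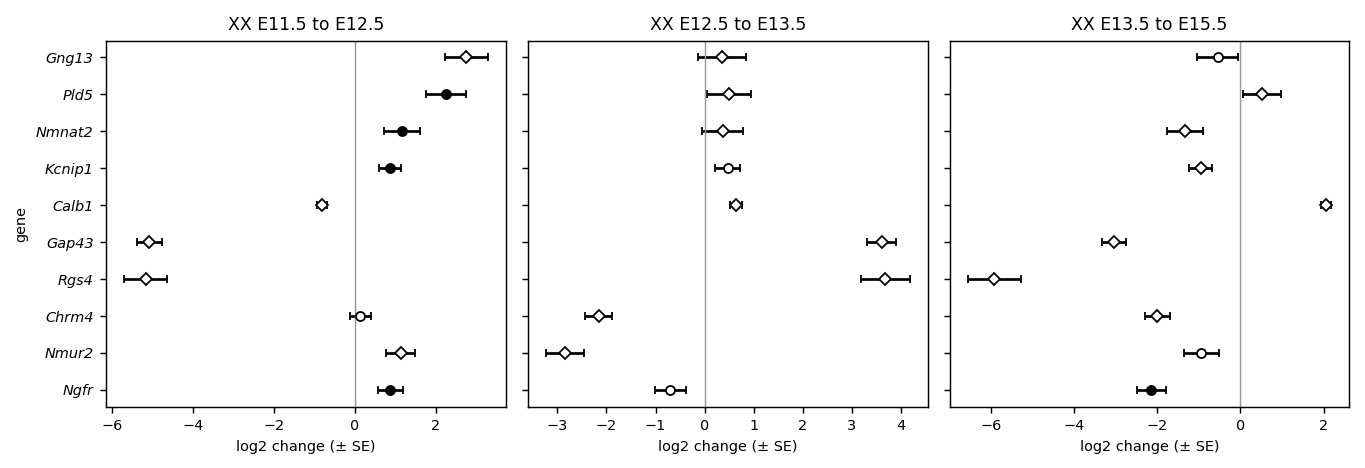
Log2 change with its SE for each gene in the 3 XX steps. Filled points passed edgeR's test (adjusted p under 0.05), open circles did not, and open diamonds are steps given as a description only. The 4 filled points of the first step lie to the right of 0, and the 1 of the last step, Ngfr, to the left.

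In XY cells all 10 members were lower at E12.5 than at E11.5, with no overlap. By edgeR's test, an unlike measure, 24.8% of all genes fell and 27.1% rose. Low XY levels were part of what chose the members, so nothing is read from the count of members and no test is given. At E11.5 in XY, Ngfr averaged 26.9 TPM, Calb1 25.7, Gap43 15.8, Gng13 3.72, Rgs4 3.26, Chrm4 2.91 and Kcnip1 1.01, while Nmur2, Pld5 and Nmnat2 averaged below 0.5 TPM. Calb1 counts went from 1726, 1586 and 1558 to 1 in each library, at least 316-fold lower at the floor of 3 counts per library, and Gap43 counts from 425, 486 and 567 to 1, 1 and 0, at least 95.7-fold lower. Ngfr was lower by 40.2-fold (-5.32 ± 0.42 on the log2 scale) and stayed above the floor.

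Other members rested on fewer XY reads. Nmnat2 had 9, 5 and 11 counts at E11.5 and none at E12.5, and Pld5 had 10, 24 and 28 and then 1, 1 and 0. Chrm4 had 108, 103 and 67 and then 1, 6 and 0. Interstitial markers (6 genes) went from 967 to 1650 CPM in XY at E11.5 to 42.9 to 48.1 at E12.5, and the pan-neuronal list from 430 to 671 CPM to 171 to 176. The part of these cells in the XY E11.5 levels was not tested.

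After E12.5, 8 of the 10 members were at or below the floor in XY at both ends of each later step, that is, with every library at 3 counts or fewer or a group mean no higher than that. Ngfr was the clear exception, with 24, 28 and 39 counts at E12.5, then 12, 27 and 35, then 100, 150 and 98. The other was Rgs4 in the first of these steps and Gng13 in the second. In the second, Gng13 had 3.02, 0 and 4.76 estimated counts before and 4.22, 3.92 and 4.07 after.

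As a description of the choice, XX libraries lay above XY libraries without overlap for 9, 9, 10 and 9 of the 10 members at the successive stages. The exceptions were Ngfr at E11.5 and Rgs4 at E12.5 and E15.5. How many of all genes were without overlap was not counted. By edgeR's test, an unlike measure, 21.4%, 30.5%, 32.8% and 34.9% of all genes tested were higher in XX at the 4 stages in turn. By the same test 20.6%, 31.5%, 33.3% and 34.4% were higher in XY. The median XX minus XY value of the members was 3.26, 9.34, 9.55 and 7.35 on the log2 scale. With members at the floor in XY set to their lower bound it was 3.26, 7.28, 7.05 and 5.07, and 0, 8, 9 and 8 members were at that floor.

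Single differences ran from near nothing to the limit of the counts. Calb1 was 3.52-fold higher in XX at E11.5 and at least 3410-fold higher at E15.5. Chrm4 was already 33.4-fold higher at E11.5, and at least 660-fold at E12.5. Ngfr was 75.3-fold higher at E12.5 and 2.28-fold at E15.5. Rgs4 was 3.38-fold higher at E12.5, where XX held 0.95, 0.95 and 0.34 TPM and XY 0.11, 0.36 and 0.08. Without XX E11.5 replicate 2, the E11.5 value went from 3.20 to 1.13 on the log2 scale for Gng13, from 3.41 to 1.77 for Pld5 and from 4.50 to 3.39 for Nmnat2, while Chrm4 went from 5.06 to 5.09.

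Members were also set against each other across the 12 XX libraries, which share 4 stages and so hold few independent points. Pearson's r of log2(CPM + 1) was 0.979 for Kcnip1 with Nmnat2, 0.964 for Gap43 with Rgs4, 0.948 for Gng13 with Pld5 and 0.881 for Chrm4 with Nmur2. Calb1 ran opposite to Ngfr at -0.914 and to Chrm4 at -0.854. Across all 24 libraries, where the sex difference used in the choice adds to every value, Calb1 with Ngfr was 0.785.

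The genes nearest to each member across 24 libraries were taken from 11157 genes that reach 10 CPM in some group. For Gng13 they were Necab3, a neuronal calcium-binding protein gene (r 0.993), and Myh8, a myosin heavy chain gene (0.99). For Pld5 they were Layn, a hyaluronan receptor gene (0.992), and Lrrn1, a leucine-rich repeat membrane protein gene (0.99). Kcnip1 and Nmnat2 shared Smpdl3b, a sphingomyelinase-like enzyme gene (0.989 and 0.99). Chrm4 had Wnt9a, a secreted WNT ligand gene (0.984), and Calb1 had Fcgrt, the neonatal Fc receptor gene (0.984), and Ets1, a transcription factor gene (0.983). Ngfr had Flnc (0.966) and Gna14, a G protein alpha subunit gene (0.96), and Nmur2 had Dmpk (0.963) beside a predicted gene. Those of Rgs4 and Gap43, given before, had r of 0.936 to 0.95. Lrrn1, for example, averaged 70.3, 261, 308 and 334 TPM in XX over the 4 stages and at most 19.1 TPM in XY.

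The relatives and partners of the members were split between the sexes. Of 125 such genes, 101 were tested. At the successive stages 27, 41, 42 and 40 of them passed the test as higher in XX, where 21.4%, 30.5%, 32.8% and 34.9% of all genes did, and 16, 25, 29 and 32 as higher in XY, where 20.6%, 31.5%, 33.3% and 34.4% did. Their median XX minus XY log2 value was 0.17, 0.40, 0.57 and 0.33. The E11.5 count of 43 falls to 18 when only the groups compared are fitted.

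The family of Kcnip1 was mostly higher in XX from E12.5 on. Of 8 other KChIP, Kv4 and Kv4 auxiliary subunit genes, 3 passed as higher in XX and 2 in XY at E11.5 (median log2 difference 0.57), 7 and 1 at E12.5 and again at E13.5 (medians 4.22 and 3.52), and 5 and 1 at E15.5 (median 2.63). Kcnd2, a Kv4 channel that KChIP proteins bind, averaged 9.72 TPM in XX and 0.193 in XY at E12.5, a difference of 5.44 ± 0.32 on the log2 scale (edgeR adjusted p = 3.9e-12). Kcnip4, a second KChIP, averaged 3.56 and 0.173 TPM (4.19 ± 0.50, adjusted p = 2.95e-07). The exception was Kcnd3, another Kv4 channel, at 0.0467 TPM in XX and 0.393 in XY.

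Other families split. In the phospholipase D family 5 of 7 were higher in XX and 1 in XY at E11.5, and 5 and 2 at E12.5, led by Pld1, an active enzyme, with means of 86.2 and 3.07 TPM (4.78 ± 0.17, adjusted p = 3.21e-15). Pld1 had XX means of 91.5, 86.2, 47.0 and 25.3 TPM over the stages, with falls in the last 2 steps (adjusted p = 0.000215 and 9.65e-05). Pld4 went with the immune markers in being near 0 in XY, at 0.0367 TPM. Of 15 G protein beta and gamma genes 6 were higher in XX and 5 in XY at E12.5: Gng11 averaged 9.22 against 1.19 TPM and Gnb5, the beta subunit that RGS proteins of one class bind, 26.2 against 70.8 TPM. Of 16 RGS genes 7 were higher in XX and 1 in XY.

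**Figure D5:**
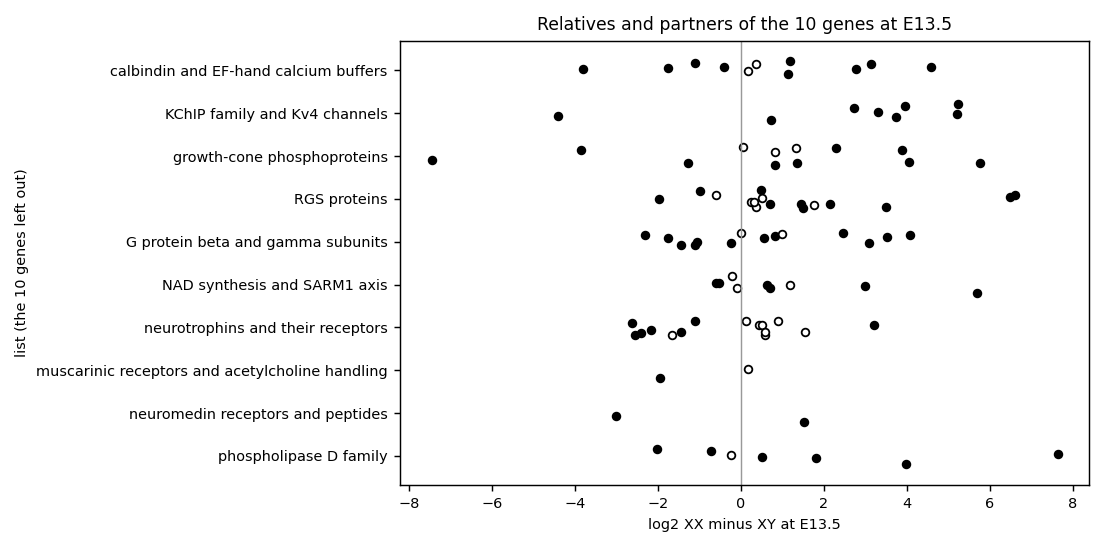
Log2 XX minus XY value at E13.5 of each tested relative or partner, by list, leaving out the 10 genes and those at the floor in both sexes. Filled points passed edgeR's test, and points far from 0 can rest on a group at the floor. Of the 8 KChIP and Kv4 genes 7 lie to the right of 0, while the neurotrophin list has 6 filled points to the left and 1 to the right.

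Growth-cone genes went both ways. Of 12, 4 were higher in XX and 4 in XY at E12.5. Crmp1, a semaphorin signalling protein gene, averaged 1.46 against 0.167 TPM, and Basp1, a relative of Gap43 in function at the membrane, 6.41 against 20.5 TPM. In XX, 9 of the 12 fell and 1 rose from E11.5 to E12.5, the step in which Gap43 was lower. Of 11 calcium-buffer and EF-hand genes, 5 were higher in XX and 4 in XY at E12.5. Calb2, the closest relative of Calb1, averaged 0.0633 TPM in XX and 0.957 in XY, opposite to Calb1, while Ncs1 averaged 18.8 and 4.97 TPM. Of 9 NAD and SARM1 genes, 5 were higher in XX and none in XY: Sarm1, the NAD-cleaving enzyme that acts against Nmnat2 in axons, averaged 1.36 and 0.217 TPM, and Nmnat1, the nuclear isoenzyme, differed by -0.13 ± 0.15 on the log2 scale (adjusted p = 0.478).

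Transcripts of several of the receptors' ligands were low in XX cells. For Ngfr, the neurotrophin gene Bdnf averaged at most 0.103 TPM in XX from E12.5 on, and the receptor genes Ntrk2 and Ntrk3 at most 0.62 TPM. Ntf5 was measurable at 12 TPM in XX and 41.7 in XY at E12.5. Maged1, which binds the Ngfr protein, averaged 913 TPM in XX and 3760 in XY. For Chrm4, the acetylcholine-making enzyme gene Chat was listed at 0 in XX at E12.5 and E13.5, and the related receptor genes Chrm1 and Chrm3 at most 0.327 TPM from E12.5 on. For Nmur2, the peptide genes Nmu and Nms averaged at most 0.213 and 0 TPM in XX. Ligand made by other cells of the gonad is outside what was measured here.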

How the data were processed

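The authors deposited estimated counts per gene, as the counting software gave them (17.5% of the values are not whole), and TPM per gene, in 2 tables. The genome build is mm10, per the submitters' processing notes. The aligner, the counter and its use of strand are not given in the sources used here.

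Counts were rounded to whole numbers. Of 32040 genes, 16190 passed edgeR's filterByExpr. They were fitted together over 24 libraries with edgeR 4.0.16 (R 4.3.3), trimmed-mean scaling and the quasi-likelihood test, 1 coefficient per group, with p-values adjusted by Benjamini-Hochberg over all genes tested and a call at 0.05. All 10 members passed the filter, all of them through groups where they are high. Folds against a group whose libraries all hold 3 counts or fewer, or whose mean is no higher than that, are lower bounds at that floor. Standard errors come from the fit across libraries. Levels between genes are compared in TPM. Scripts were tested on simulated counts.

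The members and all lists were chosen with earlier results of these data known. XX minus XY values, XY steps, and XX steps that touch a stage for which the gene had been named carry no test, which leaves 10 tested steps; the design had foreseen tests of more. All members are named, with the 2 genes nearest to each by Pearson's r of log2(CPM + 1) among genes reaching a mean of 10 CPM in some group, and listed relatives as examples. Motif letters were matched in RefSeq windows (GRCm38.p6), and loci come from GENCODE. A protein comparison was planned but protein sequences were not used here. Alternatives were other scaling (DESeq2 1.42.0 size factors), filters, DESeq2's own test, limma 3.58.1 on log2(TPM + 1) and log2(TPM + 0.1), a fold threshold, only the groups compared, a replicate block, and leaving out each library. Replicate numbers were not used as pairs in the main fit. Deviations of same-numbered libraries correlated at -0.299 to 0.373 over 84 pairs, 25 of them over 0.1. Differently numbered libraries were not set beside them, so whether the numbers pair libraries was not settled.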

Additional observations from a re-analysis of the deposited data

Results flagged for a closer look

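In 5 cases the XX libraries of a stage all lay on one side of those of the stage before, in TPM and in CPM, and the XY libraries all on the other side. That difference between the sexes was not tested, since the members were chosen by it. From E11.5 to E12.5 the log2 change in XX was 2.76 for Gng13, 1.13 for Nmur2 and 2.26 for Pld5. In XY all 3 were lower at E12.5, by at least 3.99-fold for Pld5, 5.65-fold for Nmur2 and 8.08-fold for Gng13. From E13.5 to E15.5, Ngfr changed by -2.14 in XX and by 2.60 in XY on the log2 scale. Over that step Nmnat2 changed by -1.33 in XX, while in XY it rested on few reads, with 0 counts in all 3 libraries before and 4, 1 and 1 after.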

How the results depend on the processing

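Of 160 alternative values for the 10 tested member steps, 130 kept direction and call, 25 lost the call, 4 gained one and 1 changed direction. The XX minus XY value of Ngfr at E11.5, 0.02, was 0 or below in 6 alternatives: 0 without the filter, -0.02, -0.01 and -0.02 with limma, and -0.22 to 0.31 with 1 library left out. The Chrm4 change over the first XX step, which was not called, ran from -0.06 to 0.3 with 1 library left out. The 4 members called in that step became 2 with a log2 change of at least 1 required, 2 without the filter, 0 when only the groups compared were fitted, and 1 to 4 with 1 library left out. From E12.5 to E13.5 in XX the count of 0 became 1 with limma on log2(TPM + 1) and when only those groups were fitted, and 0 to 1 with 1 library left out. From E13.5 to E15.5 the count of 1 became 2 when only those groups were fitted. The 43 relatives and partners called at E11.5 became 25 with the fold threshold and 18 with only those groups. With the replicate block the first XX step again had 4 members called. Where an XY group is at the floor, depth limits the fold to a lower bound, and pairs of groups both at the floor were not compared. The cause of the changes between settings was not tested.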

Other observations

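Single genes best known from neurons were higher in Sertoli cells, although the marker list leaned to XX at every stage but E12.5. Of the 24 pan-neuronal markers left once Gap43 is set aside, 12 were higher in XX and 5 in XY at E13.5 by edgeR's test. Of all genes, 32.8% were higher in XX and 33.3% in XY. The genes named here were chosen after their values were seen, so their p-values are no test of the list. Tubb3, a neuronal tubulin gene, was measured in the XY libraries of the earliest stage at 1.19, 0.62 and 1.49 TPM. The E12.5 XY libraries held 7.38, 10.2 and 10.4 TPM, those of E13.5 held 47.9, 41.8 and 41.2, and those of E15.5 held 101, 92.5 and 92.8. The XY stages did not overlap. The XX means, in the same order of stages, were 7.47, 1.10, 1.19 and 0.557 TPM. The E15.5 difference, XX minus XY, was -7.46 ± 0.39 on the log2 scale (SE, edgeR adjusted p = 7.99e-13, n = 3 and 3 libraries). Dpysl5, a gene of the collapsin response family, averaged 12.9 TPM in XY and 0.52 in XX at E12.5, a difference of -5.67 ± 0.55 (edgeR adjusted p = 2.09e-08). Sort1, whose protein pairs with that of Ngfr for some ligands, averaged 6.27 TPM in XY and 1.18 in XX at the same stage, a difference of -2.60 ± 0.21 (edgeR adjusted p = 6.73e-10).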
